A study of Mus musculus with 3 samples.

Results

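The 10 genes described here hold sister chromatids together or control the spindle in the egg: the cohesin genes Rec8, Smc1b, Stag3, Rad21 and Smc3, the cohesin protector gene Sgo2a, the checkpoint genes Bub1, Bub1b and Mad2l1, and the kinase gene Aurka. They were chosen by name, and their members in the data were the windows of 2 kb that overlapped each gene body (GENCODE M21 annotation, genome build GRCm38) by at least 1 base, which gave 160 of 1186323 valid windows. For comparison, 21063 protein-coding genes had at least 1 such window. The trimethylation of lysine 36 of histone H3 (H3K36me3) was measured by ultra-low-input native ChIP-seq, which digests uncross-linked chromatin with a nuclease and sequences the fragments that an antibody pulls down. The 3 replicates were pools of about 280 wild-type germinal vesicle (GV) oocytes each, from C57BL6/Babr mice 25 days old, with no treatment. GV oocytes are arrested in the first meiotic prophase with an intact nucleus, and all 3 pools belong to 1 group, so the design compares genes and windows, not conditions. The libraries were made to learn where this mark lies in GV oocytes.

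Cohesin is a ring of SMC proteins closed by a kleisin subunit and bound by a STAG subunit, and it links sister chromatids from replication until separase cuts the kleisin. In oocytes the ring contains meiotic versions of the subunits, and cohesion laid down before birth has to last until ovulation, with shugoshin proteins shielding it at centromeres. The spindle checkpoint delays anaphase until kinetochores are attached to microtubules. H3K36me3 is set down by SETD2 along transcribed gene bodies, H3K4me3 marks active promoters and also forms broad domains in oocytes, and H3K27me3 is the mark of Polycomb repression.

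The windows held 7888140 reads in replicate 1, 2692510 in replicate 2 and 3166564 in replicate 3, so replicate 1 was the deepest. Of these, 2228, 805 and 1079 reads lay over the 10 genes, and the median window of these genes held 14 reads, 4.5 reads and 7 reads in the same order. Levels are given in RPKM as the authors named them, a read count scaled to library depth. Whether the values were also divided by the window length was not settled, which would change every level by the same factor and no ratio. The threshold of 1 RPKM is the one they used to call a window enriched. For replicate 2 a smaller amount of antibody was used. Genes known for their expression in oocytes were above the threshold in 12 of 12 cases (range 1.53 to 3.73 RPKM, median 2.13). Genes of the surrounding granulosa cells were above it in 3 of 8 (0.353 to 2.02 RPKM, median 0.624). Over all protein-coding genes the share was 52.5%. The part of granulosa cells in the levels below was not tested. In a pool of oocytes, a mark carried by fewer cells and a thinner mark in every cell cannot be told apart.

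All 10 genes carried H3K36me3 above the threshold on average. Their levels ran from 1.32 RPKM for Rec8 to 2.80 RPKM for Bub1b, with a median of 2.05 RPKM against 1.11 RPKM for all protein-coding genes. Over all protein-coding genes, 52.5% had a mean above 1 RPKM. In every single replicate the level was above 1 RPKM for 9 of the 10 genes, Rec8 being the exception, against 46.5% of all protein-coding genes.

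**Figure D1:**
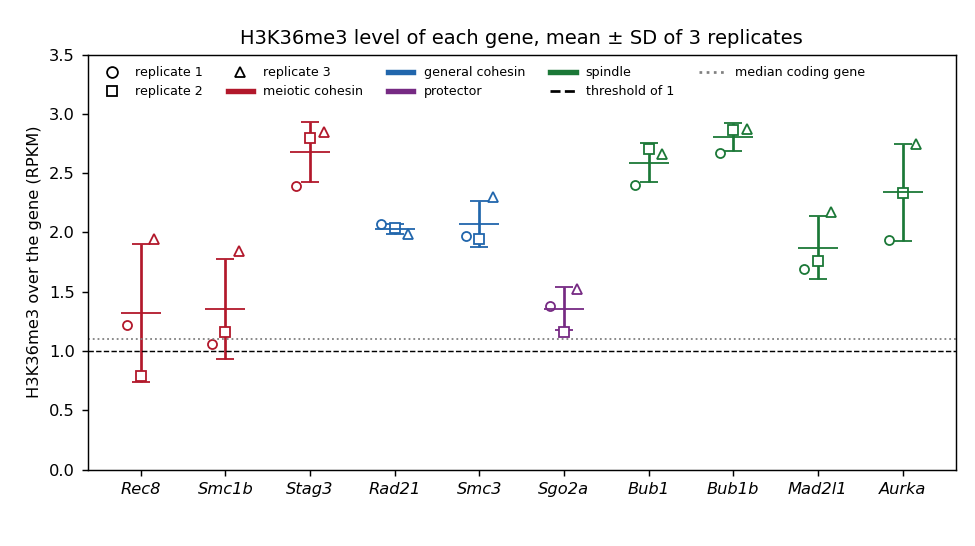
H3K36me3 level (mean RPKM over the windows of the gene, vertical axis) of each of the 10 genes, with 1 symbol per replicate and the mean ± SD of 3 replicates as a bar; the dashed line is the threshold of 1 RPKM and the dotted line the median protein-coding gene at 1.11 RPKM. Rec8, Smc1b and Sgo2a sit lowest, at 1.32 to 1.36 RPKM, while Stag3, Bub1 and Bub1b sit between 2.59 and 2.80 RPKM.

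Among the meiotic cohesin genes, Rec8 (chr14:55618037-55625395, plus strand) encodes the kleisin that separase cuts in meiosis. Its level was 1.22 RPKM in replicate 1, 0.793 RPKM in replicate 2 and 1.95 RPKM in replicate 3, a mean of 1.32 ± 0.58 (SD, n = 3). The gene is short, and its 4 windows held only 67 reads, of which 8 were in replicate 2, where the exact 95% Poisson interval ran from 0.342 to 1.56 RPKM. The replicates therefore fell on both sides of the threshold. The last of these windows also covers the end of the convergent gene Ipo4, and without it the level was 0.996 ± 0.42 RPKM, no longer above 1.

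Smc1b (chr15:85064689-85131964, minus strand) encodes the meiotic SMC1 subunit of the ring. It measured 1.06, 1.16 and 1.84 RPKM in replicates 1 to 3, a mean of 1.36 ± 0.42 (SD, n = 3) over 32 windows and 518 reads. Replicate 3 stood above replicates 1 and 2, and its 95% Poisson interval (1.58 to 2.13 RPKM) lay clear of those of replicate 1 (0.933 to 1.20) and replicate 2 (0.941 to 1.42). These intervals take every read as independent and may be too narrow, because removal of duplicate reads is not stated. Smc1b was the only 1 of the 10 genes with replicate intervals that lay apart. Without replicate 3 its level was 1.11 RPKM.

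Stag3 (chr5:138280240-138312393, plus strand), which encodes the meiotic STAG subunit, was the highest of the cohesin genes. It measured 2.39, 2.80 and 2.85 RPKM in replicates 1 to 3, a mean of 2.68 ± 0.25 (SD, n = 3), above 96.6% of protein-coding genes. All 17 of its windows were enriched on the mean of the replicates, and its highest window (chr5:138300001-138302000, 29.5% of it exonic) reached 4.39 RPKM. That window was uneven between libraries, at 2.99, 7.13 and 3.05 RPKM.

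The general cohesin genes, which also serve mitotic cells, were alike in level. Rad21 (chr15:51962240-51991747, minus strand) encodes the mitotic kleisin and measured 2.07, 2.03 and 1.99 RPKM, a mean of 2.03 ± 0.04 (SD, n = 3). Smc3 (chr19:53600398-53645833, plus strand) encodes the SMC subunit that every cohesin ring shares, and measured 1.97, 1.95 and 2.30 RPKM, a mean of 2.07 ± 0.19 (SD, n = 3). Enriched windows made up 14 of 15 in Rad21 and 21 of 23 in Smc3.

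Sgo2a (chr1:57995971-58025899, plus strand) encodes the shugoshin that protects REC8 at meiotic centromeres. It measured 1.38, 1.16 and 1.52 RPKM, a mean of 1.36 ± 0.18 (SD, n = 3), and 9 of its 16 windows were enriched. Most of the gene overlaps Kctd18 on the opposite strand, and the reads of a nucleosome cannot be assigned to either gene. The 13 windows shared with Kctd18 measured 1.20, 0.884 and 1.17 RPKM. The 3 windows at the end that belong to Sgo2a alone measured 2.17, 2.38 and 3.05 RPKM, a mean of 2.53 ± 0.46. The level of Sgo2a thus depended on which windows were counted. The mean of its own 3 windows was close to those of Bub1 and Stag3. Those are whole-gene means that include the start windows, so the parts compared are unlike.

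The checkpoint and spindle genes were all above the median gene in every replicate. Bub1 (chr2:127801122-127831865, minus strand), which encodes a kinetochore kinase that also recruits shugoshin, measured 2.40, 2.70 and 2.66 RPKM (mean 2.59 ± 0.16, SD, n = 3). Bub1b (chr2:118598211-118641591, plus strand), which encodes the checkpoint protein BUBR1, measured 2.67, 2.86 and 2.88 RPKM (mean 2.80 ± 0.11, SD, n = 3). Bub1b was the highest of the 10 genes, above 98.0% of protein-coding genes, and all 22 of its windows were enriched, 20 of them in every replicate.

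Mad2l1 (chr6:66535390-66547220, plus strand) encodes MAD2, the part of the checkpoint that binds the activator of the anaphase-promoting complex. It measured 1.69, 1.76 and 2.18 RPKM, a mean of 1.87 ± 0.26 (SD, n = 3) over 7 windows and 163 reads. Aurka (chr2:172356190-172370535, minus strand) encodes Aurora kinase A, which acts at the spindle poles, and measured 1.94, 2.33 and 2.75 RPKM, a mean of 2.34 ± 0.41 (SD, n = 3). Its 3 values were spread more widely than those of Bub1 or Bub1b, on 226 reads in 8 windows.

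In order of mean level the genes ran Bub1b, Stag3, Bub1, Aurka, Smc3, Rad21, Mad2l1, Sgo2a, Smc1b and Rec8. Of the 9 steps between neighbours in this order, only that from Mad2l1 to Sgo2a was both larger than its spread over replicates and in the same direction in all of them (0.516 ± 0.186 RPKM, higher in 3 of 3 replicates). Neighbours among the 3 lowest genes and among the 7 highest did not meet both conditions. The highest value of a gene was in replicate 3 for 8 of the 10 genes. How many of all protein-coding genes were highest in replicate 3 was not computed, so this may be a trait of the library and not of these genes.

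The meiotic cohesin genes as a group were not separated from the general ones. The mean over Rec8, Smc1b and Stag3 was 1.56 RPKM in replicate 1, 1.59 RPKM in replicate 2 and 2.21 RPKM in replicate 3, and that over Rad21 and Smc3 was 2.02, 1.99 and 2.14 RPKM. The meiotic group was lower in replicates 1 and 2 and slightly higher in replicate 3. The log2 ratio was -0.22 ± 0.23 (SD, n = 3), a difference smaller than the spread between replicates, and without replicate 3 it was -0.35. The meiotic group was itself uneven: leaving out Stag3 gave -0.68 and leaving out Rec8 gave -0.04.

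Each meiotic subunit was therefore set beside its general counterpart within the same library. With 3 replicates an exact two-sided permutation test by sign flips cannot go below p = 0.25, and all 4 pairs compared gave that value, before and after Benjamini-Hochberg adjustment, so the direction in each replicate and the spread carry the comparison. Rec8 was lower than Rad21, with log2 ratios of -0.76, -1.36 and -0.03 in replicates 1 to 3 (mean -0.72 ± 0.67). Replicate 3 showed almost no difference for this pair, and the mean moved to -0.40 without replicate 2. Smc1b was lower than its X-linked counterpart Smc1a (mean 2.75 RPKM), with log2 ratios of -1.27, -1.19 and -0.73 (mean -1.06 ± 0.29).

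The STAG subunits went the other way. Stag3 was higher than Stag1 (1.69 RPKM) by log2 ratios of 0.50, 0.84 and 0.65 (mean 0.66 ± 0.17). Against the X-linked Stag2, which at 0.936 RPKM was under the threshold, the log2 ratios were 1.23, 1.95 and 1.42 (mean 1.53 ± 0.37). For Smc1b and for Stag3 the mean ratio was larger than its spread in these pairs, and for Rec8 it was about as large as its spread. The meiotic kleisin Rad21l, which is not among the 10 genes, measured 2.04 ± 0.44 RPKM (SD, n = 3), close to Rad21 itself.

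The 5 cohesin genes together were lower than the 4 checkpoint and spindle genes in every replicate. The cohesin mean was 1.74, 1.75 and 2.18 RPKM in replicates 1 to 3, and the mean of Bub1, Bub1b, Mad2l1 and Aurka was 2.17, 2.41 and 2.62 RPKM. The log2 ratio was -0.35 ± 0.10 (SD, n = 3), larger than its spread over replicates. Without Rec8, the lowest gene, it was -0.24. With so few genes a group, the difference describes these genes and not their classes.

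By window, the mark covered most of these gene bodies. A mean above 1 RPKM was found in 135 of the 160 windows (84.4%), against 51.2% of the windows over all protein-coding genes. Of these enriched windows, 99 (73.3%) were above 1 RPKM in every replicate, where 66.4% of enriched windows over all protein-coding genes were. A further 8 were above 1 RPKM in a single replicate, a share not computed over all protein-coding genes. Stag3 and Bub1b were enriched from end to end. The authors had left out 2 windows of these genes, both inside Smc1b.

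**Figure D2:**
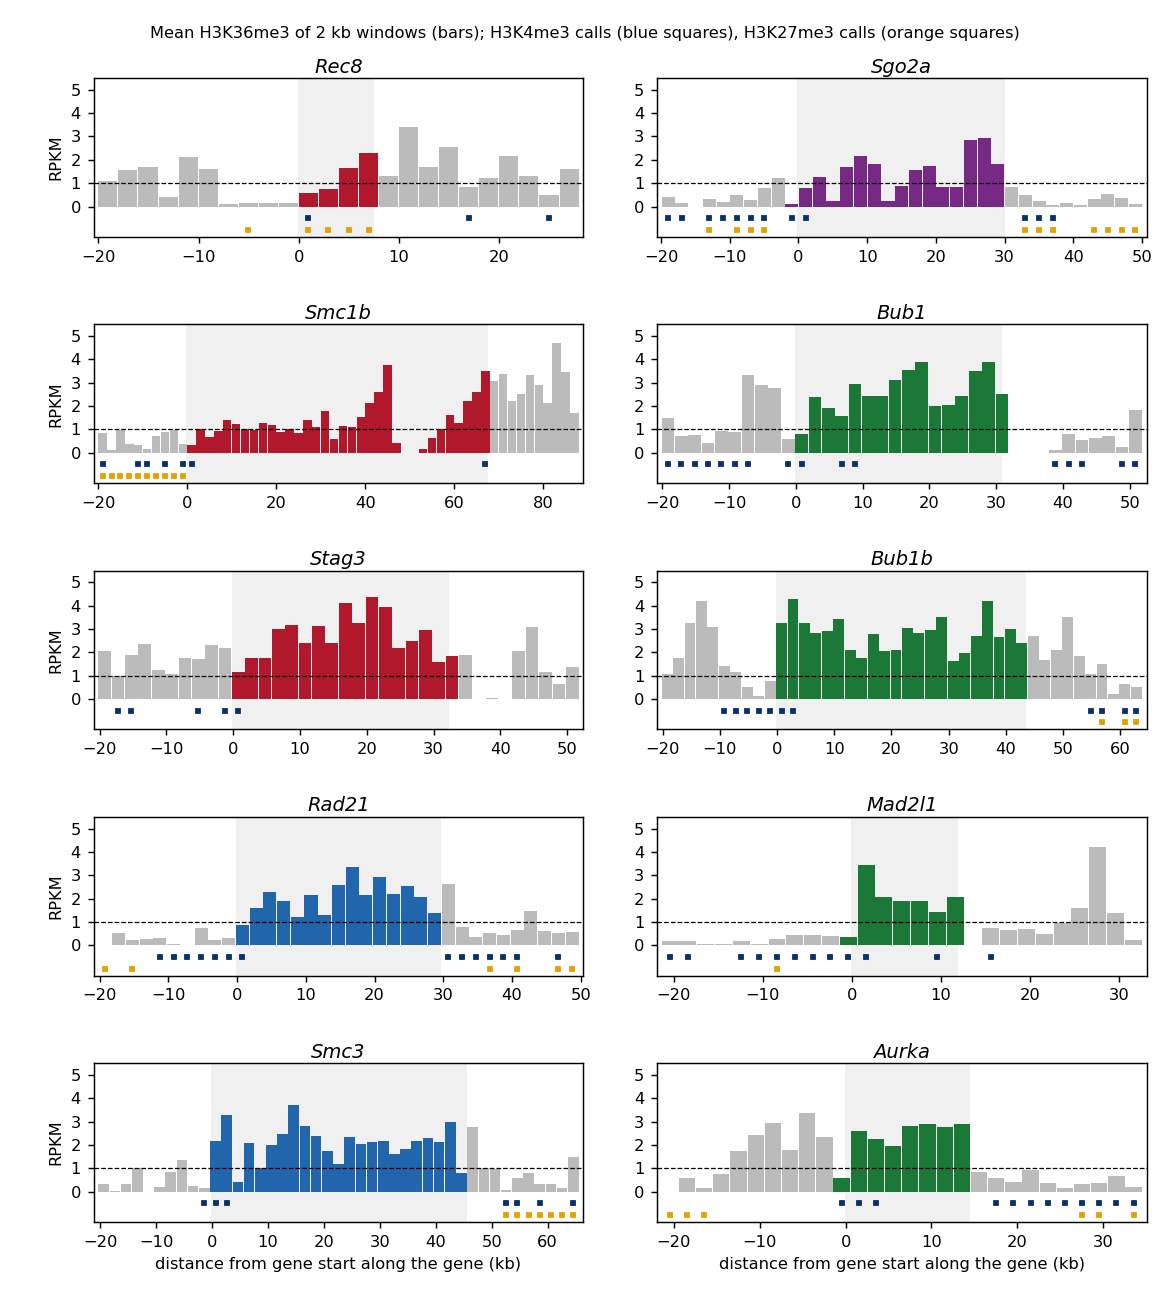
Mean H3K36me3 (RPKM, vertical axis) of consecutive 2 kb windows along each gene and the 20 kb on either side, by distance from the gene start in the direction of transcription (kb, horizontal axis), with windows of the gene coloured and others grey; squares under the axis mark windows called H3K4me3 (blue) or H3K27me3 (orange), the dashed line is 1 RPKM, and gaps without squares include windows the authors left out. Signal is low before the start of Rad21 and Mad2l1 and higher within them, Smc1b stays near 1 RPKM for most of its length, and the orange squares within gene bodies are those of Rec8.

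The other marks were sparse over these genes. H3K4me3 was called in 20 of the 160 windows (12.5%), against 26.2% of windows over protein-coding genes, and H3K27me3 in 4 (2.5%), against 25.9%. H3K36me3 was the only mark in 121 windows, it was joined by H3K4me3 in 12 and by H3K27me3 in 2, and 16 windows had no mark. The unmarked windows were 9 of Smc1b, 5 of Sgo2a and 2 of Smc3, and their mean level was 0.646 RPKM. The calls for H3K4me3 and H3K27me3 came from earlier libraries of the same laboratory, and the deposited table gives 1 call per window, so no error is given for them here.

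Rec8 was the 1 gene of the 10 with any H3K27me3, whereas 43.9% of protein-coding genes had at least 1 such window. All 4 windows of Rec8 carried that call. The start window had H3K4me3 and H3K27me3 without H3K36me3 (0.580 RPKM), and the next had H3K27me3 alone (0.746 RPKM). The last pair had H3K27me3 with H3K36me3 (1.66 and 2.29 RPKM). The values in these last windows were uneven between replicates, at 1.09, 1.19 and 2.71 RPKM in the first of the pair and 2.31, 1.19 and 3.38 RPKM in the other. Elsewhere the combination of both marks was uncommon, since 6.20% of enriched windows over protein-coding genes were also called H3K27me3.

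**Figure D3:**
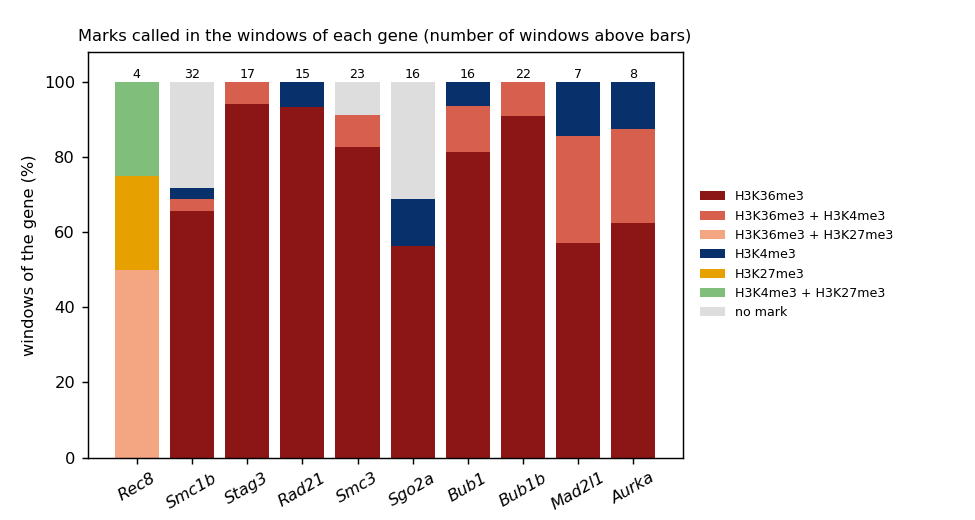
Share of the windows of each gene (%, vertical axis) in each combination of marks called by the authors, with the number of windows above each bar. H3K36me3 alone makes up most of every bar except that of Rec8, whose 4 windows all carry H3K27me3, and unmarked windows occur in Smc1b, Smc3 and Sgo2a.

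The gene starts differed from the bodies. The window that holds the annotated start was called H3K4me3 in 10 of 10 genes, against 78.0% of start windows of protein-coding genes, and H3K27me3 in 1 of 10, against 32.9%. Its H3K36me3 level ran from 0.113 RPKM in Sgo2a to 3.26 RPKM in Bub1b (median 0.695), and only Stag3, Smc3 and Bub1b were above 1 RPKM there. Averaged over the 10 genes, the start windows measured 1.00, 0.753 and 1.29 RPKM in replicates 1 to 3, and the other 150 windows 1.95, 2.08 and 2.35 RPKM. On these averages the start windows were lower in 3 of 3 replicates. Within Smc3 and Bub1b, however, the start window was above the rest of the gene on the mean of the replicates. It measured 2.15 against 2.07 RPKM in Smc3 and 3.26 against 2.78 RPKM in Bub1b. The same comparison was not made over all protein-coding genes.

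In Bub1b the levels were high right at the start. Its start window measured 3.12, 1.59 and 5.08 RPKM, and the next (chr2:118600001-118602000) was the highest of the gene at 4.27 RPKM, with H3K4me3 called in both. Of the 20 windows called H3K4me3, 10 were not start windows, and 9 of those were also enriched for H3K36me3. Most windows of these genes were enriched in any case (84.4%), and the share for such windows over all protein-coding genes was not computed. The 12 windows with both marks measured 2.17, 2.21 and 3.58 RPKM, and the 121 windows with H3K36me3 alone 2.11, 2.28 and 2.49 RPKM, so the values overlapped.

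The sequences in front of the starts are shown because each of these start windows carried H3K4me3. RefSeq promoters (GRCm38.p6, 250 bases before to 50 after the start) were found for 9 of the 10 genes, 10 promoters in all because Sgo2a has a further start upstream, and Rad21 had no entry. Exact matches were sought on both strands to CCAAT, to the E2F-type letters GCGGGAA, to the cell cycle homology element TTTGAA, to the E-box CACGTG and to TATAAA. No match overlapped a match to another motif. Capitals in the sequences mark the matches, and a match on the opposite strand reads ATTGG for CCAAT and TTCCCGC for GCGGGAA. Smc1b is shown for its E2F-type match and Bub1 and Aurka for their pairs of CCAAT, each as the 150 bases that end just before the RefSeq start, read 5′ to 3′ on the gene's strand.
Smc1b, chr15:85131958-85132107, minus strand: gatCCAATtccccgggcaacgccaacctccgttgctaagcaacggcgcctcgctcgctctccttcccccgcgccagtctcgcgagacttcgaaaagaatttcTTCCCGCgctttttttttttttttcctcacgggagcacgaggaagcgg
Bub1, chr2:127831860-127832009, minus strand: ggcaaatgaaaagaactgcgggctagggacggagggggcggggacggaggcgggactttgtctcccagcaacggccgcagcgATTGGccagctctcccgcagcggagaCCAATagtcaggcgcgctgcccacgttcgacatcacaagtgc
Aurka, chr2:172370571-172370720, minus strand: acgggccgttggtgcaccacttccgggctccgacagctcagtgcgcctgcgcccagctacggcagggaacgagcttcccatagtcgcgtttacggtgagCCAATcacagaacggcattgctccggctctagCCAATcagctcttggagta

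CCAAT occurred in 8 of the 10 promoters, from 7 genes, against 37.4% of the 32851 promoters in the table. In Aurka the matches begin 51 and 19 bases before the start, and in Bub1 they begin 68 and 42 bases before it. Rec8, the gene with H3K27me3 at its start, had 3 matches on the opposite strand, the nearest of them 81 bases before the start, in ggcttctcATTGGctgtcggt, which lies inside the gene as GENCODE draws it.

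The E2F-type letters occurred in 3 of the 10 promoters, against 4.60% of all promoters. In Smc1b they begin 48 bases before the start and in the upstream promoter of Sgo2a 15 bases after it. In Stag3 they span the RefSeq start, in cccgtgccTTCCCGCgttttttt, which GENCODE likewise places inside the gene. In both Smc1b and Stag3 a run of t follows closely after the match.

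The cell cycle homology letters occurred in Aurka, 33 bases after the start (ggagaaccTTTGAAttgtaacg), and in Bub1b, 41 bases after it (acgttaaaTTTGAAactt), against 17.9% of all promoters. The E-box occurred in Stag3 (ctggagccCACGTGacaggact), against 7.15%, and TATAAA in the upstream promoter of Sgo2a, against 13.6%. These matches are a description of the letters.

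Along the gene, the mark was higher after the midpoint in most of the 10 genes, though this depended on how the parts were drawn. With each gene divided at its midpoint, the second part was above the first in 3 of 3 replicates for 7 of the 10 genes, against 37.7% of all protein-coding genes. In Rec8 the first part measured 0.747, 0.396 and 0.846 RPKM and the second 1.70, 1.19 and 3.05 RPKM (log2 ratio 1.54 ± 0.33, SD, n = 3). That second part is only 2 windows, the last of which also covers the end of Ipo4. In Sgo2a the first part measured 1.19, 0.743 and 1.18 RPKM and the second 1.58, 1.59 and 1.86 RPKM (log2 ratio 0.72 ± 0.35). Every window in the first part of Sgo2a is shared with Kctd18. The exceptions were Smc3, Bub1b and Mad2l1, and in Mad2l1 the second part was lower in every replicate, by little (log2 ratio -0.12 ± 0.11).

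In Smc1b the rise was in every replicate, but it was much larger in replicate 3 than in the others. The first part measured 0.895, 1.12 and 1.09 RPKM and the second 1.25, 1.22 and 2.68 RPKM (log2 ratio 0.63 ± 0.60). Its highest window (chr15:85086001-85088000, 4.8% of it exonic) measured 2.04, 3.17 and 6.09 RPKM. Only 8 of the 22 enriched windows of Smc1b were above 1 RPKM in every replicate, and the median of its windows was 1.13 RPKM, so most of this gene lay near the threshold. When the first 3 windows were set against the last 3 instead, the later ones were higher in every replicate in 4 of the 9 genes that have enough windows. The share of all protein-coding genes on that measure was not computed.

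**Figure D4:**
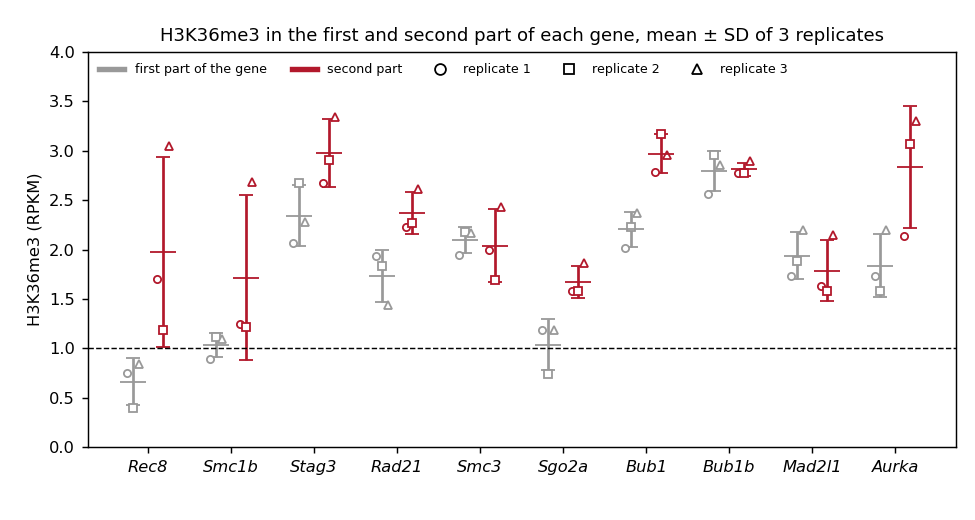
H3K36me3 (mean RPKM, vertical axis) in the windows before (grey) and after (red) the midpoint of each gene, with 1 symbol per replicate and the mean ± SD of 3 replicates; the dashed line is 1 RPKM. Red lies above grey in every replicate of 7 genes, and in Smc1b the second part is high in replicate 3 only, at 2.68 RPKM.

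Each gene body was also set against the windows within 20 kb on either side, first against those that overlap no other protein-coding gene. The body was higher in 3 of 3 replicates for 9 of the 10 genes, against 54.7% of all protein-coding genes, and each of these 9 gave an exact sign-flip permutation p = 0.25, the smallest possible. When all windows on either side were kept, the neighbouring genes included, this held for 8 genes, against 42.7% of all protein-coding genes, and it no longer held for Rec8 and Smc1b.

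Around Rad21, Smc3, Mad2l1 and Bub1b most of the flank was free of other genes, and both measures gave like values. Rad21 was 3.66-fold and Smc3 3.02-fold over their flanks, with no window left out for a neighbour, and Mad2l1 was 3.17-fold over 15 free windows and 2.82-fold over all 20. Bub1b was 1.69-fold over 20 free windows that themselves measured 1.66 RPKM. Stag3 was 2.37-fold over 9 free windows, all of them downstream, and 1.83-fold over all 19.

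Around the other genes the ratio depended on the windows kept. Aurka was 6.29-fold over 8 free windows (0.377 ± 0.105 RPKM, SD, n = 3) and 2.23-fold over all 20 windows. Bub1 was 1.24-fold over 3 free windows, all upstream, and 2.24-fold over all 17. Sgo2a had 1 free window, with no read in replicate 2, so no ratio to it is given, and it was 3.79-fold over all 19 windows, higher in 3 of 3 replicates.

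For Rec8 and Smc1b the neighbours were as high as the gene or higher. Rec8 was 2.51-fold over 4 free windows but 0.973-fold over all 20, higher in only 1 of 3 replicates. Smc1b was 2.41-fold over 3 free windows, all upstream, with a log2 ratio smaller than its spread (1.27 ± 1.54, SD, n = 3). Over all 20 windows Smc1b was 0.758-fold, lower in 3 of 3 replicates. On the downstream side of Smc1b all windows within 20 kb, which include the convergent gene Fam118a, averaged 2.94 RPKM, against 0.575 RPKM upstream.

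The 10 genes were then placed among 40 further genes of the same machinery. The list was written down by function, with earlier results of these data known. Of the 40 genes, 35 had a mean above 1 RPKM, against 52.5% of all protein-coding genes. Their median was 2.19 RPKM, against 1.11 RPKM for all protein-coding genes. The parts of the list were similar: 17 of 18 cohesin subunits and regulators (median 2.10 RPKM), 10 of 12 checkpoint genes (median 2.27 RPKM) and 8 of 10 Aurora kinases and partners (median 2.27 RPKM). At least 1 H3K27me3 window was found in 3 of the 40 genes, against 43.9% of all protein-coding genes.

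The highest of the list were Birc5 (3.45 ± 0.78 RPKM, SD, n = 3), which encodes survivin of the chromosomal passenger complex, Kntc1 (3.16 ± 0.32 RPKM), which encodes a kinetochore protein that recruits checkpoint proteins, and Incenp (2.82 ± 0.41 RPKM), which encodes the scaffold of the passenger complex. The kinases of that complex were among the lowest. Aurkb measured 0.679, 0.793 and 0.508 RPKM (mean 0.660). Aurkc, the Aurora kinase used in meiosis, measured 0.027, 0.634 and 0.000 RPKM on 9 reads in 5 windows, and none of its windows was enriched. Aurka, at 2.34 RPKM, was higher than both in every replicate. The checkpoint silencing gene Mad2l1bp was also low (0.562 ± 0.230 RPKM), while its partner gene Mad2l1 measured 1.87 RPKM.

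Close relatives of the other members were nearer to them. The shugoshin genes Sgo1 (1.80 ± 0.36 RPKM) and Sgo2b (1.95 ± 0.49 RPKM) lay above the whole-gene level of Sgo2a. They lay below the level of its unshared windows, which are only those at its end. Mad1l1, which encodes the anchor of MAD2 at kinetochores, measured 2.73 ± 0.05 RPKM. Bub3, which encodes the partner of BUB1 and BUBR1, measured 1.99 ± 0.19 RPKM, and all 6 of its windows are shared with a neighbouring gene.

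**Figure D5:**
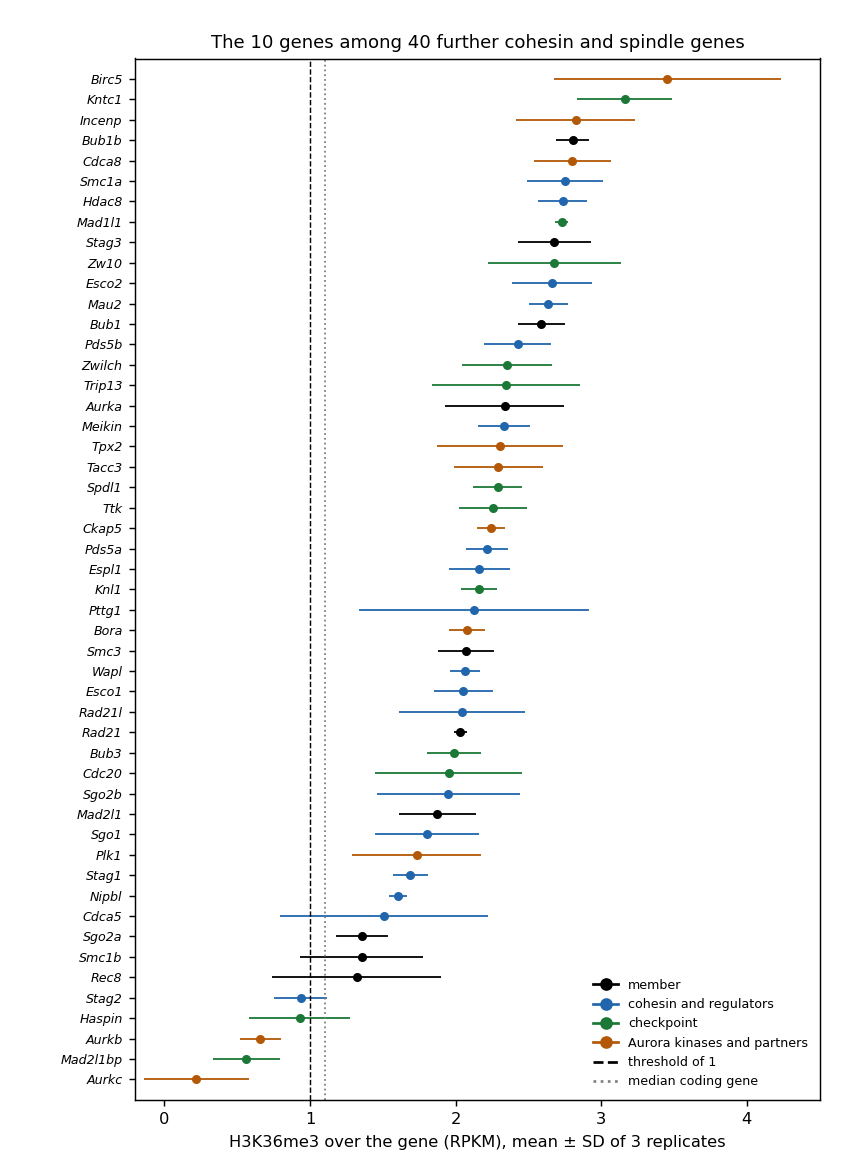
H3K36me3 level (RPKM, horizontal axis; points are means and bars SDs of 3 replicates) of the 10 genes (black) and 40 further genes coloured by role; the dashed line is 1 RPKM and the dotted line the median protein-coding gene. The genes under the threshold are Stag2, Haspin, Aurkb, Mad2l1bp and Aurkc, and Rec8, Smc1b and Sgo2a are the lowest of those above it.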

How the data were processed

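Per the study's methods, the authors trimmed reads, mapped them to GRCm38 with Bowtie2 2.2.9 and counted them in SeqMonk over consecutive 2 kb windows, leaving out windows with extreme input signal. Removal of duplicate reads is not stated. The deposited RPKM values were whole multiples of 1 read in 100% of cases (tolerance 0.1 read), worth 0.136, 0.396 and 0.338 RPKM in replicates 1 to 3, and were used as proportional to reads per window. The other deposited table gives the marks called per window, and its H3K36me3 call equalled a mean above 1 RPKM, with 0 differences.

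A gene's level was the mean over its windows in each replicate, with exact 95% Poisson intervals on recovered reads. The intervals cover counting error only, and are too narrow if duplicate reads were kept. Pairs of genes and bodies against flanks were compared by two-sided exact sign-flip permutation tests over 3 replicates. As nothing says that pools came from separate animals, the spread may be technical. The 10 genes and the lists were chosen with earlier results of these data known. Named were the 10 genes, 10 relatives, the 3 highest and 3 lowest of the 40 listed, and genes sharing windows or flanking a member. The flanking gene Fam118a was chosen after its values were seen, as was Haspin, which is shown only in a plot caption. Python 3.11.15, numpy 2.4.6, pandas 2.3.3 and scipy 1.17.1 were used, and the scripts were tested on simulated data. The alternatives covered window assignment, thresholds, scaling, pseudocounts, flank length and each replicate left out.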

Additional observations from a re-analysis of the deposited data

How the results depend on the processing

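Of 241 values recomputed under an alternative, 0 changed direction, 229 kept their side or stayed within their spread and 12 moved. For bodies against flanks these values were counts of genes, not the ratio of each gene. With all flank windows kept, that ratio did change direction in Smc1b and Rec8. It fell from 2.41-fold to 0.758-fold for Smc1b and from 2.51-fold to 0.973-fold for Rec8. At a threshold of 2 RPKM in place of 1, 6 of the 10 genes and 86 of the 160 windows remained above it. The shares of all protein-coding genes and of their windows above 2 RPKM were not computed, so these counts have no background. Counting the first 3 windows against the last 3, 4 genes were higher at the end in every replicate, and Rec8 had too few windows for a value. In 2 alternatives chosen after seeing the data, the log2 ratio of cohesin to spindle genes was -0.24 without Rec8 and that of meiotic to general cohesin genes -0.68 without Stag3. With replicates left out in turn, the latter ranged from -0.35 to -0.14 and that of Rec8 to Rad21 from -1.06 to -0.40. The level of Sgo2a was 2.53 RPKM without shared windows and that of Rec8 0.996 RPKM, which left 9 genes above 1. With all flank windows kept, the body was above the flanks in every replicate in 8 genes in place of 9, and with flanks of 10 kb Smc1b and Aurka had no value. The cause of these shifts was not tested beyond the windows or genes each alternative removes. No paired analysis was possible because all samples belong to 1 group, so replicate numbers pair no samples across groups, and only genes or windows of the same library were compared. Reads per window in replicate 2 limit what a single window shows.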
